A study of Mus musculus with 8 samples.

Results

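CpG-dense runs were stretches of the mouse genome, on chromosomes 1 to 19, in which reduced representation bisulfite sequencing read many neighbouring CpGs in every animal. Cytosines covered by at least 10 reads in all 8 mice were joined where neighbours lay at most 100 bp apart, and runs with 20 or more CpGs were kept. This gave 10853 dense runs among 123108 runs of 3 or more CpGs on these chromosomes (8.82%), and among 125876 such runs in the whole data set. The dense runs held 506214 of the 1480441 commonly covered cytosines on these chromosomes (34.2%). The rule used position and coverage and no methylation value, so the levels below are measurements that the choice did not fix.

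DNA came from the dorsal dentate gyrus granule cell layer, as the label dDG DGC layer is read here, of male C57 BL/6 mice. The 4 mice of the cocaine group had self-administered cocaine and the 4 mice of the saline group are the controls of the same procedure, with 1 library per mouse. All animals were wild-type as far as the strain label goes, and the sources used here do not give age, dose, session number or the time of dissection. A dissected layer can hold glia, vessels and interneurons beside granule neurons, so each level is an average over whatever cells the piece contained. The series title names reorganisation of DNA methylation and higher expression of extracellular matrix genes in learning related to cocaine reward as its subject.

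CpG islands are short stretches where CpGs escaped the slow loss that methylated cytosines undergo over evolution. Most lie at gene start sites, recruit CXXC-domain proteins to unmethylated CpGs and stay unmethylated in nearly all tissues, whether or not the gene is active. Known exceptions are imprinted control regions, where 1 parental copy is methylated, and promoters of germline genes, which are methylated in body cells and silenced there.

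Letters from 6 promoters show what dense runs look like at the base level. They were taken by rule as those with the most CpGs in runs of low, intermediate and high methylation, from RefSeq (GRCm38.p6, the coordinates of mm10). Each window runs from 250 bases before to 50 bases after a gene start and is printed 5′ to 3′ on the gene's strand, with capitals at each CpG whose methylation was measured in all mice. Pde8a encodes a cAMP phosphodiesterase (chr7:81213015-81213314, plus strand) and Yy1 a zinc-finger transcription factor (chr12:108793047-108793346, plus strand). Drd5 encodes a dopamine receptor (chr5:38319259-38319558, plus strand), and Dazl a germ-cell RNA-binding protein (chr17:50293571-50293870, minus strand). Mael encodes a protein of transposon silencing in germ cells (chr1:166238695-166238994, minus strand), and Slc25a31 a mitochondrial ADP/ATP carrier of the testis (chr3:40708621-40708920, plus strand).
Pde8a: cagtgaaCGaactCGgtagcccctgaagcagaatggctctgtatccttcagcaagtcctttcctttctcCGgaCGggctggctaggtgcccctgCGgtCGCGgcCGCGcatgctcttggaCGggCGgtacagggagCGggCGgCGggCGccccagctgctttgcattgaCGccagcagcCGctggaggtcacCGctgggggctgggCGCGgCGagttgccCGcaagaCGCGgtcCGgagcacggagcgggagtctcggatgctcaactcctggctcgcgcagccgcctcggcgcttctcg
Yy1: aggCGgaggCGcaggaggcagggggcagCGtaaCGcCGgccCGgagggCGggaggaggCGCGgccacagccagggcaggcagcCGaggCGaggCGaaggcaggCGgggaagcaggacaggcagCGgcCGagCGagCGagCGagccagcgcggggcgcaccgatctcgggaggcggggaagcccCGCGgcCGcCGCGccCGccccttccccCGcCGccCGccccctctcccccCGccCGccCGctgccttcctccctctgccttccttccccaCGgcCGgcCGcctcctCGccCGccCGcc
Drd5: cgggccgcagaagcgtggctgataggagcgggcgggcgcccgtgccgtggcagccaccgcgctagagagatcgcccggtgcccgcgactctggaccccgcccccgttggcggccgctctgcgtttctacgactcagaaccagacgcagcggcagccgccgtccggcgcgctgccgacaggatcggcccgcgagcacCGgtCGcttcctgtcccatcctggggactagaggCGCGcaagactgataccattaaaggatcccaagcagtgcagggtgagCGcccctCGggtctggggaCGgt
Dazl: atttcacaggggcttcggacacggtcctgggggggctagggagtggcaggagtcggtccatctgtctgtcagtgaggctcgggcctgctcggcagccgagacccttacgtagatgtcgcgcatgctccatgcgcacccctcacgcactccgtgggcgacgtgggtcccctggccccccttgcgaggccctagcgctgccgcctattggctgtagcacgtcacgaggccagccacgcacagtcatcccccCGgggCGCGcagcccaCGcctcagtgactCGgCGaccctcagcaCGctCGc
Mael: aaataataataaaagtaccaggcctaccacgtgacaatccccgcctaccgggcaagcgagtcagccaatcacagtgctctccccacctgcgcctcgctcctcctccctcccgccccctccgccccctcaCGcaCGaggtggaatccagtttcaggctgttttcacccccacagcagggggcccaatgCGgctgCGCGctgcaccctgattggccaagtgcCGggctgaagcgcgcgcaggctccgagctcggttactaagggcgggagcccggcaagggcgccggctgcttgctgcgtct
Slc25a31: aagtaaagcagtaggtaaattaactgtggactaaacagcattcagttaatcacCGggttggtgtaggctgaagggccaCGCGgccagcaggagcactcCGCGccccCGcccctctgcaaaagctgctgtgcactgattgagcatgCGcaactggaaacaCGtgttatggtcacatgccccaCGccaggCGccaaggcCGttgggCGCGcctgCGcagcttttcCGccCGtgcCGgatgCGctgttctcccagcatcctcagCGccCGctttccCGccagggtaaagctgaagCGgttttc

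The windows held 34 CpGs in Pde8a, 42 in Yy1, 38 in Drd5, 28 in Dazl, 24 in Mael and 22 in Slc25a31. The measured part of the Yy1 window stood between 0 and 1.26% in the 8 mice, and that of the Pde8a window between 0.0962% and 3.32%. The Slc25a31 window, with all 22 of its CpGs measured, stood between 84.7% and 91.2%, and the 6 measured CpGs of the Mael window between 64.2% and 79.1%. The ratio of observed CpGs to those given by the base composition was 0.963 in Pde8a and 0.856 in Yy1, beside 0.826 in Slc25a31 and 0.780 in Mael. In the Drd5 window the 7 measured CpGs, which lie around and after the start site, stood between 0 and 0.971%, although the whole Drd5 run was at 20.4%. The methylated cytosines of that run therefore lie outside the window. In the Dazl window the 8 measured CpGs, all at the 3′ end of the printed stretch, stood between 89.3% and 98.8%.

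Dense runs differed from ordinary runs in size as well as in CpG number. Their median was 30 CpGs (20 to 221) over 403 bp (92 to 2601 bp), and 8.25 CpGs per 100 bp, against 107 bp and 4.40 CpGs per 100 bp in runs of 3 to 19 CpGs. There were 1716 dense runs with 50 or more CpGs and 82 with 100 or more. The median depth was 70.5 reads per cytosine and mouse, and 43.7 and 109 at the 5th and 95th percentiles. Only 725 dense runs sat at exactly 20 CpGs, with a median level of 0.718% and 84.7% of them under 10% methylation. The 777 runs just outside, with 19 CpGs, had a median of 0.679% and 83.4% under 10%.

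Beside the letters above, the promoter windows placed dense runs among gene starts. Of 31396 promoter windows in the RefSeq table, 5682 overlapped 4526 of the 10853 dense runs. The overlapping windows had a median GC content of 66.3%, 27 CpGs and an observed to expected CpG ratio of 0.859. The 25714 other windows had 50.7%, 5 CpGs and a ratio of 0.296. A GC content over 50% with a ratio over 0.6, the usual description of a CpG island, held for 89.6% of the overlapping windows and for 33.9% of all windows. The letters CCGG, the site of MspI, the usual enzyme of this assay, occurred in 99.8% of overlapping windows and 53.5% of all, so this share partly restates how such libraries are cut. GGGCGG, the core of the GC box read by Sp1, occurred on either strand in 77.4% of overlapping windows and 36.0% of all. TATAAA, the TATA box, showed the opposite order with 4.77% and 13.6%. CCAAT occurred in 34.8% and 37.3%, TGACGTCA, the cAMP response element, in 3.08% and 1.83%, and the palindromic NRF1 motif in 2.45% and 0.968%. These motif letters were searched on both strands, the CCGG, GC box, cAMP response element and NRF1 letters hold CpGs themselves, and windows of neighbouring starts overlap.

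Most dense runs were close to a gene and almost free of methylation. The nearest gene end lay within 1 kb for 8197 runs (75.5%), between 1 and 10 kb for 1979 (18.2%) and beyond 10 kb for 677 (6.24%). Gene ends are both ends of protein-coding and long noncoding RNA genes. The median methylation level, which is the share of reads called methylated over all cytosines of a run and all mice, was 0.666%, and 6933 runs (63.9%) were under 1%. Runs of 3 to 19 CpGs had a median of 77.3%. By distance the dense medians were 0.577%, 1.20% and 1.72%.

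The share of methylated runs was larger farther from genes, although the medians stayed low. Within 1 kb of a gene end, 97.0% of dense runs were under 10%, 1.62% were between 20% and 80%, and 0.451% were over 80%. From 1 to 10 kb these shares were 81.9%, 8.44% and 5.61%. Beyond 10 kb they were 72.2%, 9.90% and 14.03%. Over all dense runs, 10056 were under 10%, 187 between 10% and 20%, 367 between 20% and 80%, and 243 over 80%. Dense runs over 80% held fewer CpGs (median 23, 4.99 per 100 bp) than those under 10% (median 31, 8.45 per 100 bp).

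**Figure D1:**
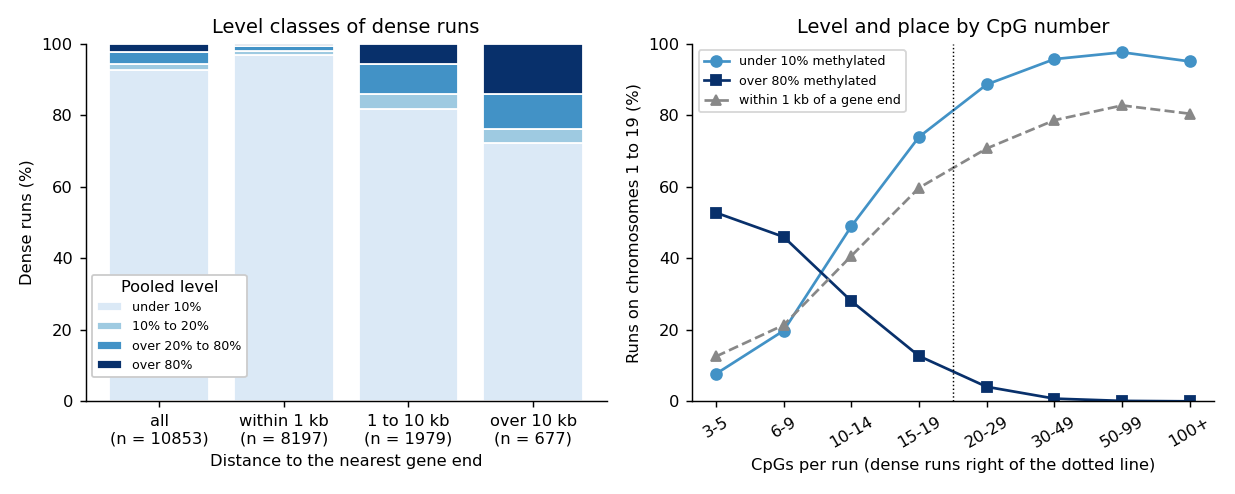
Left, the share of dense runs in each class of pooled methylation level (y axis, percent) for all dense runs and by distance to the nearest gene end. Right, the share of runs under 10%, over 80% and within 1 kb of a gene end (y axis, percent) by the number of CpGs in the run, where the share under 10% goes from 7.69% at 3 to 5 CpGs to 97.7% at 50 to 99 CpGs.

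Methylation dropped steeply with CpG number below the limit of 20 and little above it, as the plot of levels by CpG number shows. Runs of 3 to 5 CpGs were under 10% in 7.69% of cases, runs of 6 to 9 in 19.8%, and runs of 15 to 19 in 74.0%. The share was 88.7% at 20 to 29 CpGs, 95.8% at 30 to 49, 97.7% at 50 to 99 and 95.1% at 100 or more. Closeness to genes moved with CpG number too, from 12.6% within 1 kb at 3 to 5 CpGs to 82.8% at 50 to 99. The limit of 20 therefore cuts through a gradient and marks no gap.

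Within the same mouse, dense runs had a lower mean level than shorter runs at every distance. The mean level of dense runs minus that of runs of 3 to 19 CpGs was -55.9 ± 0.747 percentage points (SD, n = 8), and lay between -56.9 and -54.4 in single mice. The difference was -26.1 points within 1 kb of a gene end, -52.6 from 1 to 10 kb and -53.7 beyond 10 kb. Against runs of 10 to 19 CpGs only, it shrank to -25.5 points over all and to -6.25 within 1 kb, and was -43.7 beyond 10 kb. Medians did not follow the means near genes: within 1 kb the median of runs of 10 to 19 CpGs was 0.524%, below the dense median of 0.577%. All 8 mice had the same sign in each of these comparisons of means.

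Levels also differed by the side of the gene. Of the dense runs, 7109 lay within 1 kb of a start site in the RefSeq promoter table, which includes alternative starts inside genes. Their median level was 0.555%, and 86 of them (1.21%) were over 20%. In contrast, 61 of 261 runs at the far end only (23.4%) were over 20%. The share was also high inside genes, with 329 of 1381 runs (23.8%), and between genes, with 103 of 445 (23.1%). For 1657 runs near a gene whose strand the tables do not give, 31 (1.87%) were over 20%.

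Around start sites the mean level of dense-run cytosines formed a trough. Among 353036 cytosines of 7471 dense runs within 2 kb of a start, the lowest 100 bp bin, just before the start, was at 0.941% averaged over mice. The highest, nearly 2 kb into the gene, was at 8.39%. In the lowest bin cocaine mice were at 0.828% ± 0.204 and saline mice at 1.05% ± 0.304 (SD, n = 4 each). The 4 cocaine values there were 0.673%, 0.784%, 0.730% and 1.13%, and the 4 saline values 1.45%, 1.15%, 0.815% and 0.811%. The groups overlapped, with saline 1 highest.

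**Figure D2:**
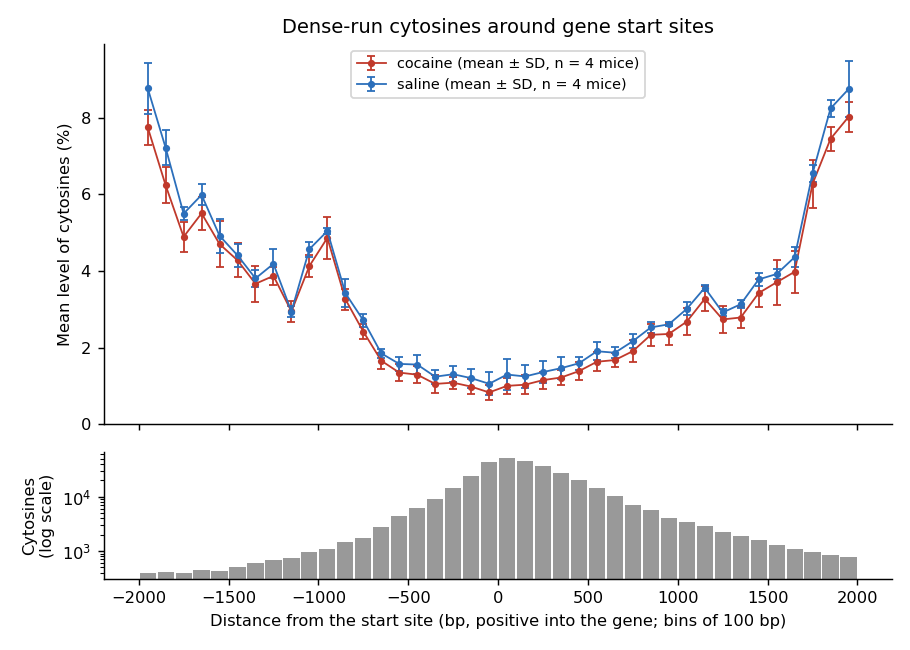
Mean level of dense-run cytosines (y axis, percent) in bins of 100 bp by distance from the nearest start site (x axis, bp, positive into the gene), as mean and SD of 4 mice per group, with the number of cytosines per bin below on a log axis. Both groups have the same trough, with a lowest mean over all mice of 0.941% and the widest bars at the edges, where a bin holds few cytosines.

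Of the dense runs with the most CpGs, 4 sat at ordinary genes and were almost free of methylation. The run at Pde8a (chr7:81213023-81214259, 151 CpGs) was at 0.884%, that at Yy1 (chr12:108792972-108794376, 147 CpGs) at 0.219%, and that at Phyhipl (chr10:70598682-70599908, 145 CpGs) at 1.46%. Grb10, an imprinted adaptor protein that restrains growth, had 144 CpGs (chr11:12036772-12038055) at 1.28%. In the run at Phyhipl, cocaine mice stood at 0.0887%, 0.275%, 0.0804% and 3.67%, and saline mice at 5.51%, 0.413%, 0.927% and 0.881%. Cocaine 4 and saline 1 were high there and the groups overlapped. The run with the most CpGs, 221, lies at AY036118 (chr17:39846110-39848710), a locus that carries ribosomal RNA sequence. It had 2798 reads per cytosine and mouse, and stood at 16.1%. Whether reads of other copies of that sequence enter this value was not tested. A second dense run nearest to AY036118 (chr17:39843014-39844660), with 164 CpGs, was passed over by the rule of 1 run per gene. It stood at 16.9%, with 3189 reads per cytosine and mouse. The deepest dense run, near Gm33780 (chr2:98666503-98667326), had 28855 reads per cytosine and mouse and stood at 90.5%. It was at 89.7% ± 2.12 in cocaine and 91.4% ± 1.40 in saline mice (SD, n = 4 each), and the groups overlapped. It was singled out after its value was seen.

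Intermediate methylation came in more than 1 form. Of the 367 dense runs between 20% and 80%, 127 (34.6%) were even, meaning that at least 80% of their cytosines were themselves between 20% and 80%. A further 5 were stepped, with at least 20% of cytosines under 20% and at least 20% over 80%, and 235 fitted neither description. The even form is what a run methylated on some DNA copies along its whole length gives, and the stepped form what an edge between an unmethylated and a methylated stretch gives. Bulk reads do not show which alleles or cells carry the methylated copies.

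Imprinted genes supplied several of the intermediate runs. Of 37 listed imprinted genes, 16 had 17 dense runs within 1 kb of an end, with a median of 20.3% against 0.666% over all dense runs. Between 20% and 80% lay 9 of the 17, against 367 of 10853 (3.38%), and 5 of the 9 were even. These are the runs at Plagl1, a zinc-finger regulator of growth (39.0%), Nnat, a membrane proteolipid of developing brain (35.5%), Mcts2 (33.1%), Zrsr1, a splicing factor relative (30.3%), and Peg13, a noncoding RNA of brain (27.4%). The remaining 8 were under 10%, among them Grb10, Herc3 (0.250%) and Igf2r, the receptor that clears IGF2 (4.92%). Of the 17 runs 10 could be tested, and none had an unadjusted p under 0.05, beside 6.56% of tested dense runs. The groups overlapped in all 17, beside 331 of 10853 dense runs where they did not. An even run overlapping Gnas (chr2:174328544-174328781, 30 CpGs) was not counted on the list, because no gene end lay within 1 kb of it. The nearest, that of Gm30189, was 1157 bp away. It was named after its values were seen, at 22.0%, 28.99%, 27.4% and 22.6% in cocaine mice and 35.5%, 38.9%, 27.6% and 25.1% in saline mice. The groups overlapped. The difference of -6.53 points had an unadjusted p of 0.0381 and an adjusted p of 0.876 in the limma-moderated fit.

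Single values show how widely the even imprinted runs varied within each group. At Plagl1 (chr10:13090623-13090986, 29 CpGs) cocaine mice were at 29.8%, 41.3%, 33.6% and 47.1%, and saline mice at 35.5%, 39.5%, 39.0% and 44.6%. At Zrsr1 (chr11:22972264-22973169, 48 CpGs) cocaine mice were at 20.6%, 30.8%, 31.1% and 36.4%, and saline mice at 26.3%, 41.8%, 30.03% and 28.9%. The groups overlapped at both. The means were 37.9% ± 7.76 and 39.6% ± 3.78 at Plagl1, and 29.7% ± 6.63 and 31.8% ± 6.87 at Zrsr1 (SD, n = 4 each, cocaine first). In the run at Cdkn1c, an imprinted cell-cycle inhibitor (chr7:143458918-143459676, 72 CpGs), the means were 19.5% ± 3.10 and 21.1% ± 2.19.

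Germline genes had the highest median of the lists. Of 31 listed genes, 7 had a dense run near an end, with a median of 89.4%, and 5 of these runs were over 80%. Mael (84.0%), Slc25a31 (89.4%), Tex101, a germ-cell surface protein (90.2%), and the testis tubulins Tuba3a (94.4%) and Tuba3b (94.9%) make up the 5. The start shared by Smc1b, a meiotic cohesin subunit, and Ribc2 (chr15:85131626-85132232, 42 CpGs) was at 23.6%. None of the 7 had an unadjusted p under 0.05, beside 6.56% of tested dense runs. In the run at Mael (chr1:166238499-166238864, 28 CpGs) cocaine mice were at 88.6%, 84.0%, 79.4% and 84.0%, and saline mice at 82.5%, 87.4%, 85.4% and 80.8%, so the groups overlapped.

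Dazl held the seventh germline run and gave the clearest step. In this run (chr17:50292975-50293621, 57 CpGs), 30 cytosines were under 20%, 46 over 80% and 9 in between. The cytosines under 20% were together between 2.07% and 6.84% in the 8 mice, and those over 80% between 89.0% and 95.05%. Sorting by level fixes that contrast in advance. By position they interleave in part, with the low ones from base 50292975 to 50293363 and the high ones from 50293159 to 50293621. The low cytosines lie mainly on the side away from the start site, and the promoter letters printed above belong to the high side. The level of the whole run, 45.5% ± 5.17 in cocaine mice and 48.0% ± 3.81 in saline mice (SD, n = 4 each), is thus a mixture of both states. Runs at Jph2, Gpr162, 2200002D01Rik and Ccdc124 were the other stepped ones between 20% and 80%, named after their values were seen.

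**Figure D3:**
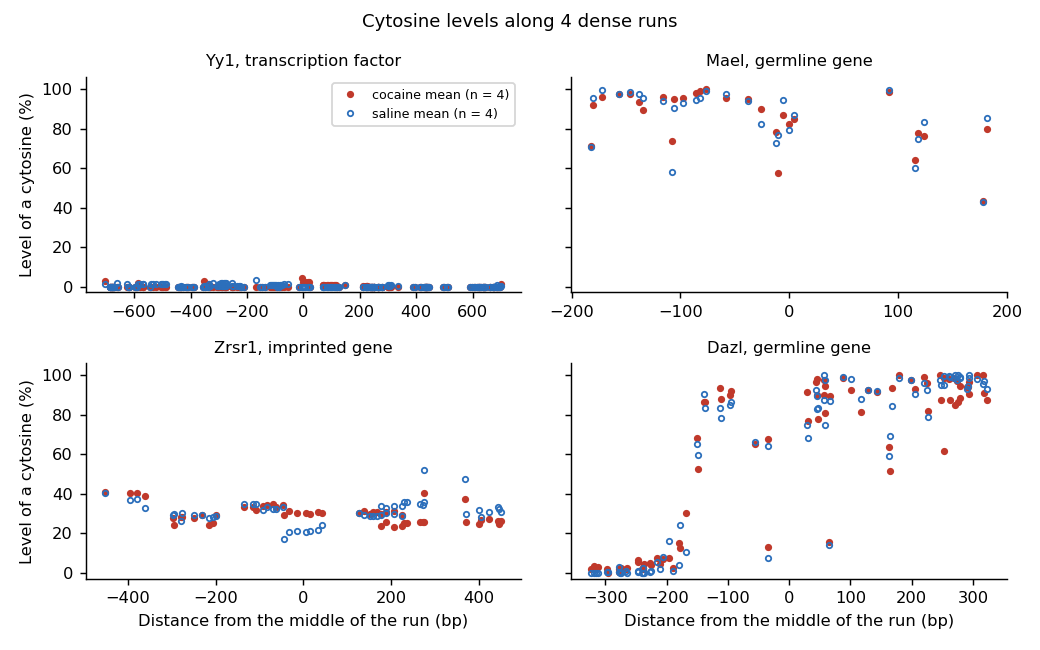
Level of each cytosine (y axis, percent, mean of 4 mice per group) along 4 dense runs, by distance from the middle of the run in the direction of rising chromosome position (x axis, bp). Yy1 stays near 0, Zrsr1 lies between 22.3% and 47.0% when all mice are pooled, Mael is high with a few lower cytosines, and Dazl goes from a low to a high stretch.

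A methylated dense run at a start site was rare. Only 16 of the 7109 start-site runs were over 80%, and they are named here after their values were seen. Besides the germline genes Mael, Slc25a31, Tex101, Tuba3a, Tuba3b and Fkbp6, which are on the list, they include Sycp2, a protein of the meiotic chromosome axis, Msh4, a meiotic recombination protein, and Sohlh2, a germ-cell transcription factor. Zdhhc25, BC048507, 1700120K04Rik, 1700029P11Rik and runs near starts of Gm12404 (inside Fam219a), of Gm52894 (overlapping St7) and inside Myo18a complete the 16. They held 20 to 42 CpGs. The level of each varied by at most 11.5 points over the 8 mice. The run at Sohlh2 (chr3:55182100-55182760, 24 CpGs) was at 92.5%, 95.7%, 91.9% and 94.9% in cocaine mice and 97.4%, 93.5%, 96.1% and 96.3% in saline mice, which overlapped. High levels near gene ends were also seen at Ccer1 (93.1%) and at the far end of Fam50b (92.5%).

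Developmental regulators had many dense runs with little methylation, though their median lay above that of all dense runs. Of 86 listed homeobox and other developmental transcription factors, 59 had 102 dense runs, with a median of 1.22%, beside 0.666% over all, and 100 of 102 under 10%. Irx3 (chr8:91800058-91801471, 121 CpGs) was at 1.15%, Tlx3 (chr11:33202996-33204533, 114 CpGs) at 1.92% and Otx1 (chr11:21992879-21994379, 116 CpGs) at 5.44%. The exceptions, both at far ends and named after their values were seen, were Foxc1 (32.8%) and Gsc (18.4%). Cocaine and saline means differed little at Otx1, with 5.28% ± 0.984 and 5.58% ± 0.558 (SD, n = 4 each).

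Dense runs of plasticity and extracellular matrix genes had medians near that of all dense runs, and those of housekeeping genes had a lower median. The medians were 0.302% for 25 runs of 22 housekeeping genes, 0.654% for 51 runs of 36 plasticity genes and 0.655% for 54 runs of 45 extracellular matrix genes, beside 0.666% over all dense runs. Listed runs lie within 1 kb of a gene end, where the median of dense runs was 0.577%, below those of the plasticity and matrix lists. All of these runs were under 10%, as were 97.0% of all dense runs within 1 kb of a gene end. Eef1a1, a translation elongation factor, was at 0.302%, and the start shared by Hnrnpk and Rmi1 at 0.245%. Dusp1, a phosphatase of the immediate early response, was at 0.264%, Klf9, a zinc-finger factor of mature granule neurons, at 0.654%, and Nptx2, a pentraxin that binds AMPA receptors, at 0.837%. Ltbp2, a matrix protein of the latent TGF-beta binding protein family, was at 0.864%, Gpc6, a glypican, at 0.322%, and Fbn2, a fibrillin, at 0.461%.

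The extracellular matrix list bears on the subject in the series title, and none of its members was called. In cocaine mice 32 of its 54 runs had the lower mean and 22 the higher one, beside 6439 and 4412 over all dense runs. The median difference was -0.0731 points, beside -0.0982 points over all. At Ltbp2 (chr12:84875757-84876960, 78 CpGs) cocaine mice were at 1.28%, 0.708%, 0.454% and 1.31%, and saline mice at 0.486%, 0.761%, 0.959% and 1.10%. At Gpc6 (chr14:116925504-116926785, 76 CpGs) cocaine mice were at 0.119%, 0.258%, 0.441% and 1.04%, and saline mice at 0.0173%, 0.179%, 0.329% and 0.280%. The groups overlapped at both, and levels this near 0 left most matrix runs outside the test, which took 1 of the 54. That one, at Nid2, a basement membrane nidogen, was at 6.73% ± 0.870 and 7.46% ± 1.39, and was named after its value was seen.

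Of the plasticity list 30 runs had the lower and 21 the higher mean in cocaine mice, and of the housekeeping list 7 and 18. At Dusp1 (chr17:26507609-26509065, 98 CpGs) the means were 0.149% ± 0.120 in cocaine and 0.409% ± 0.435 in saline mice (SD, n = 4 each). At Klf9 (chr19:23141351-23142497, 94 CpGs) they were 1.03% ± 1.02 and 0.447% ± 0.317, with cocaine 4 at 2.49% the highest. Both differences were within the spread between mice. None of these runs reached the level needed for the test.

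Dense runs near cell type markers were almost free of methylation whichever cell type the marker belongs to. Runs near markers of dentate granule neurons (4 of 8 genes, 5 runs) had levels from 0.0638% to 1.08%, and those of CA pyramidal neurons (4 of 7 genes, 5 runs) from 0.212% to 1.67%. Runs near markers of the oligodendrocyte lineage (3 of 7 genes, 3 runs) had levels from 0.699% to 2.62%, and those of endothelial and mural cells (2 of 5 genes, 4 runs) from 0.419% to 4.96%. A single interneuron marker, Slc32a1, had a run, at 1.32%, and none of 5 astrocyte and 5 microglia markers had one. All were under 10%, so these runs give no check of the cell makeup of the samples. Dsp, a desmosomal protein of granule neurons, was at 1.08%, and C1ql2, a synaptic organiser of mossy fibres, at 0.484%. Olig1, an oligodendrocyte transcription factor, was at 0.699%, and Cldn5, a tight-junction protein of vessels, at 2.64%.

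Before the comparison of groups, the libraries themselves differed. Median coverage in dense runs was 53 to 75 reads in cocaine mice and 61 to 93 in saline mice. Saline 1 stood apart. At dense-run cytosines of intermediate level read 30 to 40 times, 14.1% of the levels in this mouse sat at 0 or 100%, where the other 7 libraries had 0.348% to 3.17%. Among the 10056 dense runs under 10%, 64 had 1 mouse at least 10 points above all others, and that mouse was saline 1 in 54, cocaine 4 in 9 and saline 4 in 1. Ugcg, a glucosylceramide synthase (33.4% in saline 1, 0.206% to 3.79% elsewhere), Habp4 (28.2%, 0 to 6.64%), Mex3a, an RNA-binding protein (26.0%, 0 to 1.99%), and Znrf4 (29.1%, 1.11% to 8.80%) had the widest ranges of this kind near gene ends. At Gtf3c5 (chr2:28582153-28582759), a subunit of the RNA polymerase III factor TFIIIC, values ran from 28.1% in cocaine 3 to 56.0% in saline 2. The part of these libraries in the group differences was not tested beyond the values without them.

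With each run weighted equally, mean levels of dense runs were slightly lower in the cocaine group in every distance set, and the groups overlapped in each. With reads pooled over runs instead, the direction turned over all dense runs (0.743 points higher) and beyond 10 kb (5.79 points higher). With the deepest cytosines dropped as well, a choice made after seeing the data, the pooled differences were -0.340 and -0.705 points. With equal weights, over all 10853 runs cocaine mice were at 4.40%, 4.57%, 4.24% and 4.99%, and saline mice at 5.04%, 4.93%, 4.71% and 4.69%. The means were 4.55% ± 0.326 and 4.84% ± 0.168 (SD, n = 4 each), a difference of -0.293 points. Cocaine 4 lay among the saline mice and cocaine 3 below all others. Without cocaine 3 the difference was -0.189 points, and without cocaine 4 it was -0.441. Without both saline 1 and cocaine 3 it was -0.124 points, a choice made after seeing the data.

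Within 1 kb of a gene end the means were 1.96% ± 0.247 in cocaine and 2.21% ± 0.222 in saline mice (SD, n = 4 each). The values were 1.80%, 1.96%, 1.76% and 2.31% in cocaine mice, and 2.48%, 2.29%, 2.03% and 2.02% in saline mice. The difference of -0.248 points was -0.155 without saline 1. From 1 to 10 kb the means were 10.5% ± 0.560 and 10.8% ± 0.0985, and the difference of -0.348 points was -0.140 without cocaine 3 and -0.589 without cocaine 4. Beyond 10 kb they were 18.6% ± 0.654 and 19.3% ± 0.0747, and the difference of -0.680 points was -0.417 without cocaine 3. Cocaine mice were more spread than saline mice in both far sets.

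By level class the difference was most visible in points among intermediate runs. The 367 runs between 20% and 80% were at 41.9%, 42.8%, 39.7% and 45.2% in cocaine mice and at 43.4%, 44.4%, 44.8% and 44.6% in saline mice. The means were 42.4% ± 2.29 and 44.3% ± 0.620 (SD, n = 4 each), and 269 of the 367 runs (73.3%) had the lower mean in cocaine mice. Cocaine 4 was the highest of all 8 mice, so the groups overlapped. The difference of -1.90 points was -0.997 without cocaine 3. Even runs gave 45.0% ± 2.50 and 46.7% ± 0.928, a difference of -1.71 points that was -0.823 without cocaine 3 and -2.79 without cocaine 4. Runs over 80% gave 88.6% ± 1.20 and 89.5% ± 0.252, a difference of -0.838 points that was -0.274 without cocaine 3. Runs under 10% gave 0.963% ± 0.223 and 1.18% ± 0.217, a difference of -0.213 points that was -0.123 without saline 1.

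Shorter runs showed a difference in the same direction, so the direction was not limited to dense runs. For runs of 3 to 19 CpGs, cocaine minus saline was -1.09 points over all, -0.726 within 1 kb of a gene end, -1.17 from 1 to 10 kb and -1.18 beyond 10 kb. Members of a set share their libraries, so the number of runs adds no independent evidence and no test was made of these means.

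**Figure D4:**
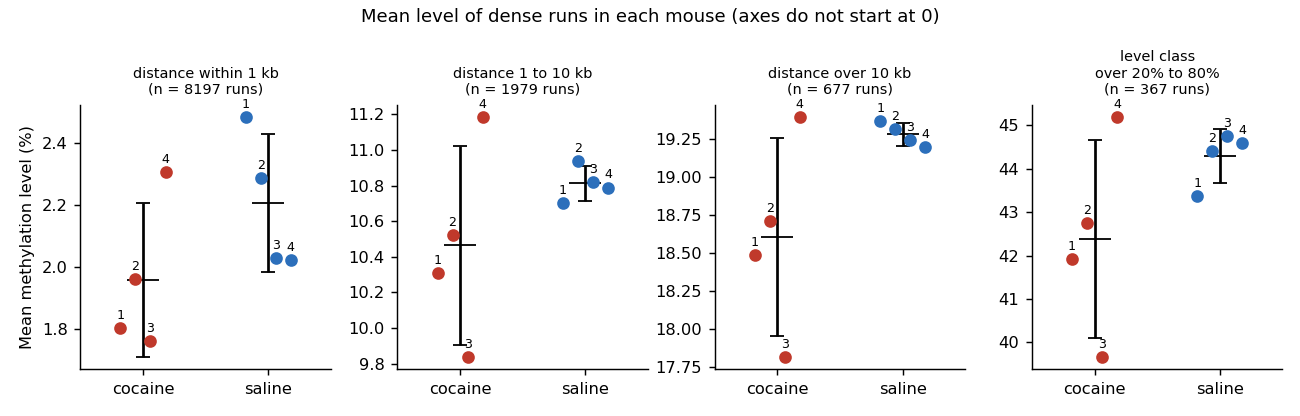
Mean level of dense runs (y axis, percent, axes not starting at 0) in each cocaine and saline mouse, numbered, in the 3 distance sets and in runs between 20% and 80%, with lines and bars at the group mean and SD. Cocaine 4 lies at or above the saline mean and cocaine 3 lowest in every panel.

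Single dense runs were compared in a quasi-binomial fit with limma's moderated dispersion over all 92484 runs of the series that lay between 5% and 95%. Of the dense runs, 1083 (9.98%) entered it, 397 within 1 kb of a gene end, 462 from 1 to 10 kb and 224 beyond. The other 9770 were too close to 0 or 100%, and 14 of those differed by 5 points or more, with 6.87 points as the largest. A call needed 10 points of difference and an adjusted p under 0.05. No dense run was called, and neither was any run of the series, a background of 0%. With the replicate number as a block, 1 run of the series was called, and it was not a dense run. The smallest adjusted p was 0.249.

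At an unadjusted p under 0.05, 65 dense runs (6.00%) were lower in cocaine mice, beside 4.57% of all tested runs, and 6 (0.554%) were higher, beside 1.08%. Groups were apart, with every mouse of one group above every mouse of the other, in 28 dense runs (2.59%), beside 3.29%. Cocaine mice had the lower mean in 748 (69.1%), beside 61.8%. These shares lie near the background and are no result about dense runs. The lower runs were 27 within 1 kb of a gene end, 22 from 1 to 10 kb and 16 beyond, and the higher ones 1, 5 and 0. Without cocaine 3 the counts were 41 lower and 20 higher, and without cocaine 4 they were 103 and 6. Leaving out cocaine 2, saline 3 or saline 4 gave 11, 10 and 13 higher runs. The same table tested with limma on logit levels gave 8 lower and 0 higher.

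Dense runs were measured with less spread than the rest. Among tested dense runs the median SD between mice was 2.65 points in the cocaine and 2.45 in the saline group, beside 4.86 and 4.45 in all tested runs. The median absolute difference was 1.48 points beside 2.64, and 9 dense runs differed by 10 points or more.

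The smallest p belonged to a run inside Zfp993, a zinc-finger gene (chr4:146942230-146942551, 39 CpGs, 31059 bp from the nearest gene end, that of Rex2). Cocaine mice were at 29.3%, 30.8%, 29.8% and 32.9%, and saline mice at 45.1%, 43.9%, 48.98% and 43.3%. The groups did not overlap and differed by -14.6 points, with an adjusted p of 0.249 in the limma-moderated fit. Zinc-finger genes of this kind stand in clusters of similar copies, and whether reads were shared with neighbours was not tested. The run was of the even form.

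The next was the start site of Rbm46, an RNA-binding protein needed for meiosis in germ cells (chr3:82876275-82876551, 33 CpGs). Cocaine mice were at 5.14%, 7.74%, 5.63% and 7.05%, and saline mice at 14.6%, 14.4%, 10.8% and 14.98%. All saline mice were above all cocaine mice, with means of 6.39% ± 1.21 and 13.7% ± 1.94 (SD, n = 4 each). The difference of -7.29 points had an adjusted p of 0.637 in the limma-moderated fit.

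Cirbp, which encodes the cold-inducible RNA-binding protein, had the fifth smallest p among lower runs, at a start site (chr10:80171826-80172338, 36 CpGs). Cocaine mice were at 44.7%, 49.1%, 38.5% and 52.3%, and saline mice at 52.5%, 54.4%, 56.3% and 60.1%. The groups were apart only by the narrow gap between cocaine 4 and saline 1, and the limma-moderated adjusted p was 0.876. A run near Gm15322 (chr13:112057817-112058521, 23 CpGs) was also apart, at 35.3% ± 6.38 and 48.0% ± 0.983. A run in Zfp865, another zinc-finger gene (chr7:5030529-5030725, 24 CpGs), was at 70.7% ± 9.31 and 83.5% ± 4.77 and overlapped, and its difference of -12.7 points was -5.10 when gaps of at most 200 bp joined it to neighbours.

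Among the 5 higher runs, the groups were apart only at a run inside Cbx6, a Polycomb chromobox protein (chr15:79828773-79829190, 25 CpGs). Cocaine mice were at 49.2%, 44.7%, 48.9% and 46.9%, and saline mice at 22.9%, 37.1%, 43.7% and 42.7%. Saline 1 was far below the other saline mice, and the difference of 10.8 points was 6.23 without it. The limma-moderated adjusted p was 0.876. The far end of Tgfb1, the growth factor TGF-beta 1 (chr7:25704812-25705315, 25 CpGs), was at 12.99%, 10.3%, 3.74% and 15.1% in cocaine and 2.65%, 6.77%, 4.803% and 7.18% in saline mice. Cocaine 3 lay within the saline range. At Ptger1, a prostaglandin E2 receptor (chr8:83668525-83668750, 28 CpGs), cocaine 4 at 23.4% stood above all others, with means of 11.5% ± 8.01 and 5.43% ± 1.06, and the difference of 6.05 points was 2.07 without cocaine 4. Runs near Gm32719 (chr12:20233227-20233792, 22 CpGs), with 260 reads per cytosine and mouse, and in Klhdc7a (chr4:139965337-139966056, 32 CpGs) overlapped, at 68.0% ± 8.24 and 58.6% ± 4.42, and at 85.7% ± 3.02 and 81.1% ± 1.61. The difference near Gm32719 was 9.39 points, and 6.12 without cocaine 1. That in Klhdc7a was 4.61 points, and 3.05 with gaps of at most 50 bp.

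**Figure D5:**
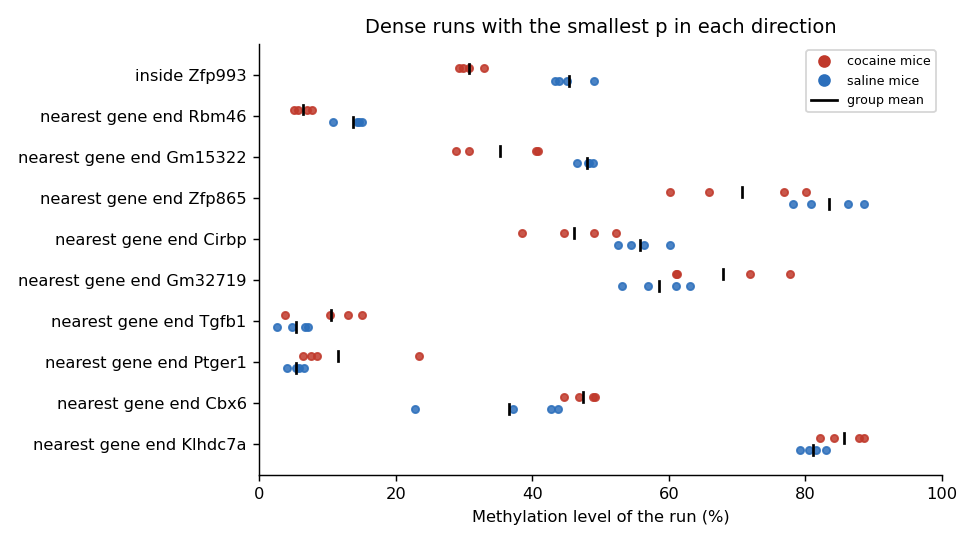
Methylation level (x axis, percent) of the 5 dense runs with the smallest p among those lower in cocaine mice (top) and the 5 among those higher (bottom), 1 point per mouse, with a line at each group mean. The groups do not overlap for Zfp993, Rbm46, Gm15322, Cirbp and Cbx6, and no run passed the adjusted threshold.

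Of the 5 runs nearest to 50% at gene ends, Cirbp is described above and the groups overlapped at the other 4. The start of Arhgef10l (chr4:140665444-140666004, 20 CpGs), was at 48.1% ± 6.07 in cocaine and 54.7% ± 0.772 in saline mice (SD, n = 4 each). The run at the far end of Mrps23, a mitochondrial ribosomal protein gene, lies inside Cuedc1 (chr11:88193278-88193798, 23 CpGs) and was at 47.7% ± 5.03 and 51.1% ± 0.991. The clustered protocadherins, cell-adhesion genes whose alternative promoters are chosen neuron by neuron, gave 50.6% ± 3.72 and 53.3% ± 2.85 near Pcdha8 (20 CpGs) and 51.5% ± 4.23 and 49.2% ± 5.14 near Pcdhga5 (20 CpGs). The Pcdhga5 run was even. The dopamine receptor gene Drd5 (chr5:38319455-38320465, 60 CpGs) was at 16.99%, 21.6%, 15.3% and 21.6% in cocaine mice and 21.3%, 23.7%, 21.4% and 19.2% in saline mice, and the groups overlapped.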

How the data were processed

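Per the submitters' processing notes, the tools were bcl2fastq and Bismark 22.1 and the build mm10. The sources used here give neither trimming nor duplicate removal. Each deposited file lists cytosines by strand with a methylation level, deposited as a fraction from 0 to 1, and a coverage, deposited as a read count of at least 10. Level times coverage was whole at 100% of cytosines (within rounding of the deposited decimals), which gave methylated reads. Libraries held 87964952 to 141775386 reads summed over cytosines. No molecular identifiers are given, so reads may be copies and counting error understates the error.

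Groups came from the sample titles. Nearest gene ends came from the RefSeq gene table, and start sites, strands and letters from the RefSeq promoter table (GRCm38.p6), which is not complete. Exons and introns were not placed. Methylated and unmethylated reads per run were tested by quasi-binomial regression on group (Python 3.11.15, numpy 2.4.6, pandas 2.3.3), with dispersions moderated by limma 3.58.1 (R 4.3.3, trend on coverage, floor of 1, prior degrees of freedom 11.4), an F test and Benjamini-Hochberg adjustment over 92484 runs of at least 3 CpGs. The fit was also run on simulated reads. These had the same spread parameter in every run, so they do not cover runs where a single mouse stands apart. The p-values rest on the spread between mice, with each run's own spread drawn toward the trend over runs. A run's own spread therefore only partly sets its p. At Ugcg this fit gave an unadjusted p of 0.00629, although saline 1 alone was high and the groups overlapped. With unmoderated dispersion, the dense runs with p below 0.05 numbered 49 lower and 4 higher, beside 65 and 6. Pairwise comparison of libraries found no copies.

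Named runs were the 5 smallest p per direction, the 5 with most CpGs, and near protein-coding gene ends the 5 highest, the 5 of widest range and the 5 nearest to 50%, plus up to 3 per list by CpG number. A run that the rule names among the housekeeping genes is not reported here. Members and lists were chosen with earlier results of these data known. Alternatives were other gaps, coverage and CpG limits, a gene-end limit of 2 kb, no level filter and limma on logit levels. Others were unmoderated dispersion, pooled reads, a replicate block and leaving out each mouse.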

Additional observations from a re-analysis of the deposited data

Results flagged for a closer look

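Among 66 groups of 4 mice examined, 7 values lay far from the other 3 of their group, and chance flags about 1 in 20 groups that were not chosen for their values. The runs near Mex3a, Ugcg and Znrf4 were named for their wide range and those near Rbm46 and Ptger1 for their small p, so that rate does not apply to them. Saline 1 gave 4 of them. Its share of intermediate dense-run values at exactly 0 or 100% was 14.1%, against 0.348% to 1.29% in the other saline mice. It stood at 26.0% near Mex3a (others 0.159% to 0.777%), at 33.4% near Ugcg (0.779% to 3.79%) and at 29.1% near Znrf4 (2.38% to 4.57%).

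Saline 3 was low at the start of Rbm46, at 10.8% against 14.4% to 14.98%. In the cocaine group, cocaine 4 was high at Ptger1, at 23.4% against 6.40% to 8.502%, and cocaine 2 stood at 1.99% near Mex3a against 0 to 0.194%.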

How the results depend on the processing

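No dense run was called under any alternative. Counts at an unadjusted p under 0.05, which were 65 lower and 6 higher, moved with the choices. The lower count was 37 with gaps of at most 50 bp, 113 with 200 bp, 620 with no filter on level, 8 with limma on logit levels, 23 at 30 or more CpGs, 138 at 15 or more, and 41 without saline 1 and cocaine 3. The higher count was 10 at a coverage minimum of 20, 226 with no filter, 0 with limma on logit levels, 1 at 30 or more CpGs, 25 at 15 or more, and 19 without saline 1 and cocaine 3. Leaving out 1 mouse at a time gave 41 to 103 lower and 6 to 20 higher. Fewer or more runs enter with the gap, level and CpG limits, and the other causes were not tested. With reads pooled over runs, cocaine minus saline was 0.743 points over all dense runs and 5.79 beyond 10 kb, and with the deepest cytosines dropped, an alternative chosen after seeing the data, -0.340 and -0.705. Against runs of 10 to 19 CpGs the dense difference was -25.5 points in all, -6.25 within 1 kb, -28.2 from 1 to 10 kb and -43.7 beyond 10 kb. The other 112 differences and counts under alternatives moved by less than the limits set for them. Some of these could not move. A replicate block leaves every set difference as it is. A gene-end limit of 2 kb leaves those over all dense runs (-0.293 points) and beyond 10 kb (-0.680) unchanged. For counts the limit was a fixed ratio, and for set differences the SD between mice. A set difference could thus shrink much and still be among the 112. From 1 to 10 kb, -0.348 points was -0.140 without cocaine 3. The levels themselves moved more with the definition of a run: the cocaine mean over all dense runs, 4.55%, was 2.34% at 30 or more CpGs, 2.43% with gaps of at most 50 bp, 6.94% with 200 bp and 8.76% at 15 or more CpGs, and beyond 10 kb 18.6% became 6.87%, 8.61%, 27.5% and 35.4%.

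The labels state no pairing by replicate number. Correlations of deviations were -0.0169 to 0.0772 in same-numbered pairs and -0.139 to 0.0644 in the other pairs. Such correlations cannot show whether mice were matched in the procedure. With the number as a replicate block, 79 dense runs were lower and 9 higher, and 0 were called. The limits on level left 9759 dense runs under 5% untested. With no filter on level, 10851 dense runs entered the fit.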

Other observations

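Dense runs of the sex chromosomes lie outside the comparison above. On chromosome X, 198 runs of 20 or more CpGs had mean levels of 2.11%, 2.40%, 2.16% and 2.78% in cocaine mice and 2.90%, 2.63%, 2.68% and 2.34% in saline mice. The means of 2.36% and 2.64% compare with 4.55% and 4.84% over all autosomal dense runs, and with 1.96% and 2.21% within 1 kb of a gene end. On chromosome Y, 3 such runs had mean levels of 60.1% ± 1.76 in cocaine and 60.8% ± 0.581 in saline mice (SD, n = 4 each). The groups overlapped in both.

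Chromosome 7 held 781 dense runs, of which 78 were over 20%, and chromosome 11 held 913, of which 57 were. They had the highest counts and were named after these were seen. Over all 10853 dense runs, 367 were between 20% and 80% and 243 over 80%. The share over 20% was larger on chromosomes 12 (37 of 438), 15 (35 of 471) and 10 (40 of 568) than on chromosome 11.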
